A study of Mus musculus with 10 samples.

Results

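Immunoglobulin and B-lineage transcripts were followed in cultures of mouse bone marrow-derived macrophages (BMDM), macrophages grown from marrow precursors. The set held 8 genes chosen by symbol, 8 of the 57010 identifiers in the deposited table, and each matched 1 identifier. They were Ighm and Igkc (immunoglobulin constant regions), Cd79a and Cd79b (signalling subunits of the B cell receptor), Ms4a1 and Cd22 (B cell surface proteins), and Ebf1 and Spib (transcription factors). Of the 8, 7 reached a mean of 10 normalized reads over the libraries and were among the 12455 genes tested. Cd79a fell under that limit and is given by its values alone. The choice rested on measured values: Ighm had already been seen to be higher in unconfined knockout cells, and Cd79b lower in confined wild-type cells. Values of the 8 genes in these 2 comparisons are therefore given as a description, with no test.

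Marrow had been taken from femurs of WT animals and of WASp knockouts (WKO). WASp, the protein of the gene Was, activates branched actin assembly in blood cells. All cultures were kept for 7 days in RPMI with the macrophage growth factor MCSF (recombinant mouse protein, 20 ng/mL). Unconfined libraries numbered 2 for WT (replicates 1 and 3) and 2 for WKO (replicates 1 and 3). Confined cells had been held for 1 h at a height of 3 µm under PDMS micropillars, with 3 libraries for WT (replicates 2, 3 and 6) and 3 for WKO (replicates 1, 2 and 5). The age and strain of the mice, and whether libraries came from separate animals or cultures, are not given in the sources used here, so p-values measure only the spread between these libraries.

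Depth lay between 13295701 and 19329908 reads per library, and 3 reads, taken as the detection floor, corresponded to a normalized read count between 2.35 and 3.59. Was had between 1308 and 1649 normalized counts in WT and between 96.9 and 154 in WKO libraries, so it followed the labels. The 11 macrophage markers were all detected, and their summed normalized count lay between 197000 and 339900. The B cell receptor is a membrane immunoglobulin, built of paired heavy and light chains, held in a complex with Cd79a and Cd79b. Each B cell makes its chains from genes in which 1 variable (V) segment has been joined to a constant region, so a population of B cells uses many V segments and a single clone uses few. IgM, whose constant region is encoded by Ighm, is made first, and later switching replaces it with IgG, IgA or IgE. Marrow, the source of these cultures, holds B cells at many stages as well as plasma cells.

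The V segments with the most reads are shown first, because V segments differ between receptors, while all IgM or all kappa chains share their constant region. The 60 bases at the 3′ end of each are given 5′ to 3′ from the GENCODE M21 transcripts on GRCm38. Capitals mark the stretch that ends with the codon of the conserved cysteine just before the joining site.
Igkv4-59: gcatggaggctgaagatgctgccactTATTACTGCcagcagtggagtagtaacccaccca
Ighv1-81: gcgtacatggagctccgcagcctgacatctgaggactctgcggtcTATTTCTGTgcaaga
Igkv1-117: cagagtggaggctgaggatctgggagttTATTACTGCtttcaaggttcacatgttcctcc
Iglv1: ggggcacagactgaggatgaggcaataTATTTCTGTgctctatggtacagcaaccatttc
Ighv5-12: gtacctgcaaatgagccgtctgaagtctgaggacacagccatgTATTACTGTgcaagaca
Igkv4-59 lies at chr6:69438218-69438757 on the minus strand and Igkv1-117 at chr6:68121046-68121827 on the plus strand, both in the kappa light chain locus. Ighv1-81 (chr12:115920279-115920712) and Ighv5-12 (chr12:113702124-113702578) are heavy chain segments on the minus strand, and Iglv1 (chr16:19085017-19085500, minus strand) is a lambda light chain segment. Igkv4-55 matches 100% of the Igkv4-59 transcript at 95.1% identity, Igkv1-110 matches 99.3% of Igkv1-117 at 97.5%, and Iglv2 matches 93.1% of Iglv1 at 97.0%. The division of reads between the members of such a pair is uncertain.

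Ighm and Igkc were both several times higher in WKO than in WT libraries in each condition. Per kilobase of exon they were the 2 most abundant of the 8 genes in all 4 groups. Ighm (ENSMUSG00000076617, chr12:113418558-113422730, minus strand, 6 exons) encodes the constant region of the IgM heavy chain. Its normalized read count was 728 and 692 in WT unconfined and 4235 and 3942 in the unconfined WKO libraries. After confinement it was 698.5, 575 and 388 in WT (replicates 2, 3 and 6) and 5093, 3415 and 1517 in WKO (replicates 1, 2 and 5). Every WKO library was above every WT library, and the lowest WKO value was that of confined replicate 5. In bulk samples such as these, fewer cells of a type and less RNA per cell cannot be told apart.

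The unconfined Ighm means were 710 ± 25.3 (WT) and 4088 ± 208 (WKO; SD, n = 2 each), a log2 difference of 2.52. In confined cells they were 554 ± 156 (WT) and 3342 ± 1789 (WKO; SD, n = 3 each), a 6.04-fold ratio. The confined difference was 2.47 on the log2(value + 1) scale (SE 0.345, limma adjusted p = 0.00551). This call held under all 18 alternatives, with a limma, edgeR or DESeq2 adjusted p between 1.033e-06 and 0.0379. Ighm had been chosen for its genotype difference in unconfined cells, so the call is not independent of that choice. Ighm means after confinement were 0.780 times the unconfined mean in WT and 0.817 times in WKO. The latter difference did not pass (log2 -0.46, limma adjusted p = 0.641), and the WKO libraries of both conditions overlapped.

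Igkc (ENSMUSG00000076609, chr6:70726435-70726966, plus strand, 1 exon) encodes the constant region of the kappa light chain. Its normalized count was 234 and 174 in WT unconfined and 1057 and 1134 in WKO unconfined libraries. Among confined libraries it was 75.0, 143 and 8.84 in WT and 1335, 918 and 222 in WKO. The genotypes did not overlap in either condition, and WT confined replicate 6 stood lowest, with 11 reads. The confined means were 75.7 ± 67.1 in WT and 825 ± 563 in WKO (SD, n = 3 each), a log2 difference of 3.77 (SE 0.834, limma adjusted p = 0.0374). That call was lost in 8 of the 10 fits that left out 1 library. Without WT confined replicate 6 the log2 difference was 2.63 (limma adjusted p = 0.0663). The unconfined genotype difference was 2.44 on the log2 scale. WT confined libraries lay below both WT unconfined ones (log2 -2.09), and in WKO the confinement difference of -0.75 did not pass (limma adjusted p = 0.761).

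**Figure D1:**
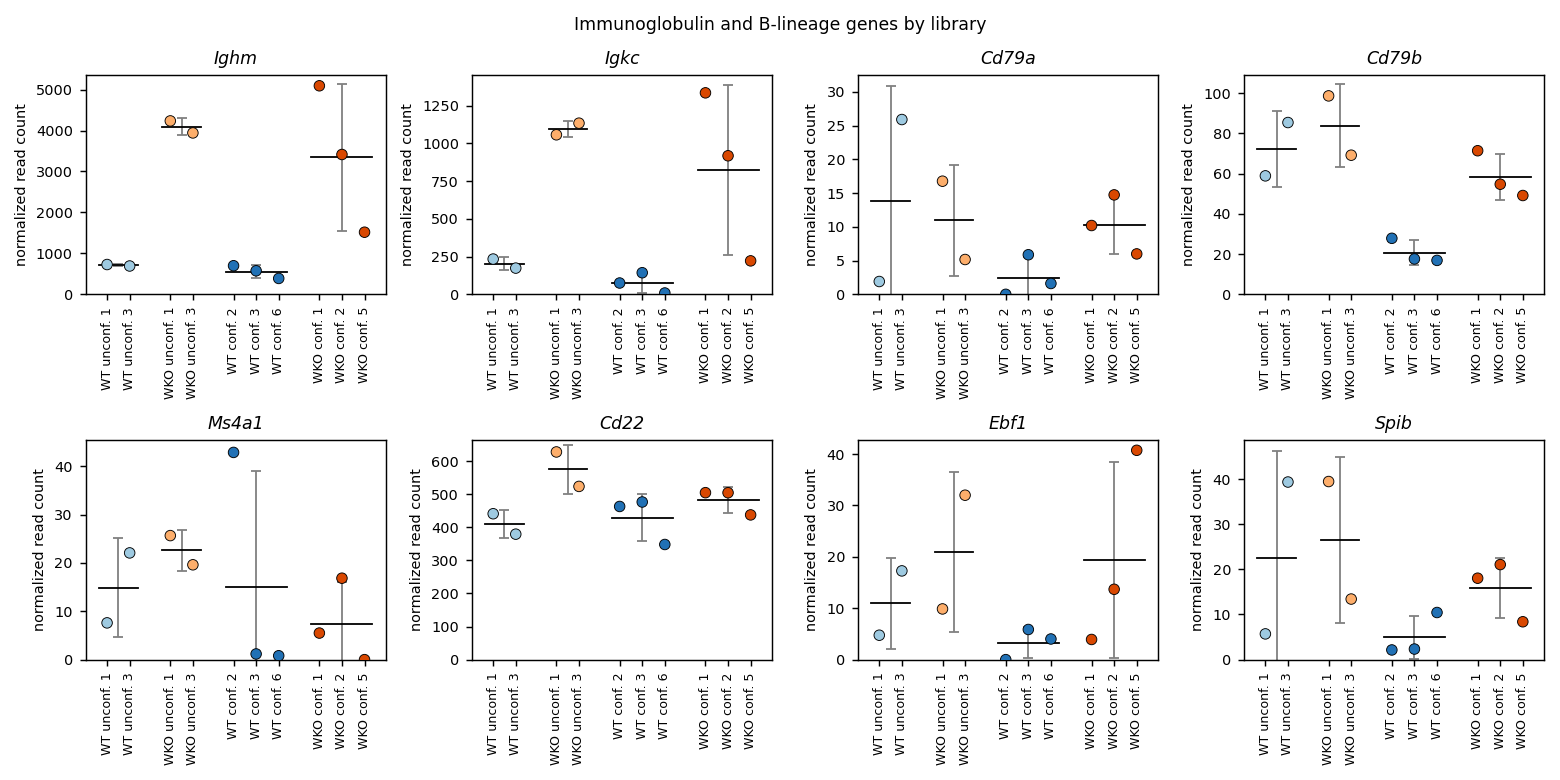
Normalized read count (linear axes) of each of the 8 genes in the 10 libraries, with 1 point per library, a horizontal line at the group mean and a bar of 1 SD; unconf. is unconfined and conf. confined. Ighm and Igkc are higher in every WKO library than in every WT library of the same condition, Cd79b is lowest in the 3 WT confined libraries, and Cd79a, Ms4a1, Ebf1 and Spib reach at most 42.9.

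Of the 7 tested genes, 3 (Ighm, Igkc and Cd79b) passed the limma threshold in WKO against WT confined cells, all of them higher in WKO. Cd79b had been chosen for its low WT confined values, which form 1 arm here, so its call is not independent support. Ighm had been chosen for its genotype difference in unconfined cells. Whether libraries of both conditions share animals is not known, so its call is not independent of the choice either. Igkc belongs to a set chosen with earlier results of these data known. Between confined genotypes 2.59% of all tested genes passed, and 1.38% passed as higher. edgeR's quasi-likelihood test and DESeq2 called the same number, 3 each. The count was 1 without either WKO unconfined library, without WT confined replicate 2 or 6, or without WKO confined replicate 1 or 2. In unconfined cells 1 of the 7 passed, Ighm, against 0.145% of all tested genes, and nothing is read from it because the comparison served in choosing the set. In WKO cells none of the 7 passed for confinement by limma, edgeR or DESeq2, and 0 had an unadjusted p under 0.05; 1.72% of all tested genes passed there.

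Cd79b (ENSMUSG00000040592, chr11:106311341-106314762, minus strand, 6 exons) is the beta signalling subunit that carries the receptor's signal into the cell. Its normalized count was 58.9 and 85.4 in WT unconfined, 98.7 and 69.2 in WKO unconfined, 27.9, 17.6 and 16.9 in WT confined, and 71.4, 54.7 and 49.1 in WKO confined libraries. The 3 WT confined libraries lay below all the others, which overlapped one another. In WT the means were 72.2 ± 18.8 (SD, n = 2) unconfined and 20.8 ± 6.14 (SD, n = 3) confined, a log2 difference of -1.76. In that comparison 1 of the 7 genes passed, against 1.16% of all tested genes; this is again only a description.

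Between confined cells Cd79b was 2.81 times as high in WKO as in WT (log2 1.47, SE 0.318, limma adjusted p = 0.0346). One arm of this comparison is the 3 low WT confined libraries for which Cd79b was chosen, so the p is not independent of that choice. Over the alternatives the limma, edgeR or DESeq2 adjusted p lay between 0.00475 and 0.206, and it was above 0.05 in 7 of the 10 fits without 1 library, with only the confined libraries fitted (0.102) and without the filter on low counts (0.0940). In WKO the confinement difference was -0.51 (limma adjusted p = 0.564). The interaction, the confinement difference of WKO less that of WT, was 1.25 on the log2 scale for Cd79b. It contains the WT difference that led to the choice of the gene and is given as a description. Over all tested genes limma called 0% for the interaction, with 258 at an unadjusted p under 0.05, and edgeR and DESeq2 called 0 as well.

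Cd79a (ENSMUSG00000003379, chr7:24897381-24902197, plus strand, 5 exons), the alpha subunit and partner of Cd79b, was near the floor. Its normalized count was 1.90 and 25.9 in WT unconfined and 16.8 and 5.16 in WKO unconfined libraries. Confined libraries gave 0, 5.87 and 1.61 in WT and 10.2, 14.7 and 5.99 in WKO, so that only the confined genotypes did not overlap. Its counts are uncertain, since Gm32220 matches 20.5% of its longest transcript at 98.7% identity. Igkc, Ighm, Cd79a and Cd79b were the genes that did not overlap and were higher in WKO among confined libraries, 4 of the 8 (Cd79a among them, which was not tested), against 10.7% of all tested genes. By the same measure Igkc and Cd79b were lower after confinement in WT, against 17.7% of all tested genes, and Ms4a1 and Cd22 were lower after confinement in WKO, against 13.8%.

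For the surface proteins of mature B cells no difference passed the test. Cd22 (ENSMUSG00000030577, chr7:30865402-30880342, minus strand), an inhibitory co-receptor that binds sialic acid, was the only other abundant gene of the set. Its normalized count was 441 and 379 in WT unconfined, 627.5 and 523 in WKO unconfined, 463, 476 and 348 in WT confined, and 504.5, 504 and 437 in WKO confined libraries. Confined genotypes overlapped (log2 difference 0.18, limma adjusted p = 0.623). The unconfined log2 difference was 0.49, without overlap, where 22.2% of all tested genes were higher without overlap. Cd22 shares exon sequence with Gm29439 on the opposite strand, and whether the counting used strand is not given in the sources used here.

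Ms4a1 (ENSMUSG00000024673, chr19:11249675-11266241, minus strand) encodes CD20, a membrane protein of B cells before the plasma cell stage. It had 7.60 and 22.1 normalized counts in WT unconfined and 25.7 and 19.6 in WKO unconfined libraries. After confinement it had 42.9, 1.17 and 0.803 in WT and 5.49, 16.8 and 0 in WKO. The highest value of all 10, 40 reads, was that of WT confined replicate 2, while the other WT confined libraries held 1 read each. The confined genotype difference was -0.19 (limma adjusted p = 0.966) and became 1.30 without WT confined replicate 2, so its sign rested on that library.

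The transcription factors were low and variable. Ebf1 (ENSMUSG00000057098, chr11:44617317-45008091, plus strand) sets up the B cell programme in precursors and is also made in marrow stromal cells. Its counts were 4.75 and 17.3 in WT unconfined, 9.87 and 32.0 in WKO unconfined, 0, 5.87 and 4.02 in WT confined, and 3.92, 13.7 and 40.7 in WKO confined libraries. Its highest value lay in WKO confined replicate 5, which also had the highest value of 11 of the 12 stromal markers. Their summed count was 11020 there, against 212 to 3673 in the other libraries; the part of these cells in Ebf1 was not tested.

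Spib (ENSMUSG00000008193, chr7:44525993-44532071, minus strand) encodes an ETS factor of B cells and plasmacytoid dendritic cells. It had 5.70 and 39.3 normalized counts in WT unconfined, 39.5 and 13.4 in WKO unconfined, 2.14, 2.35 and 10.4 in WT confined, and 18.0, 21.1 and 8.39 in WKO confined libraries. All 4 groups overlapped in the comparisons made. Siglech, a surface marker of plasmacytoid dendritic cells, ranged from 3.21 to 78.9. Neither factor passed between confined genotypes (log2 2.15 for Ebf1, limma adjusted p = 0.306; log2 1.68 for Spib, limma adjusted p = 0.331), and the SEs of 1.00 and 0.818 leave wide intervals.

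Per kilobase of exon, which allows genes to be compared, the mean level over the 10 libraries was 1128 for Ighm and 996 for Igkc. Cd22 followed at 93.3 and Cd79b at 38.4. Cd79a (6.05), Spib (5.59), Ms4a1 (2.30) and Ebf1 (1.35) were lowest. These levels are normalized counts per kilobase, and the gap between the chains and Cd79b depended on genotype. In WT unconfined libraries the levels were 376 for Ighm, 383 for Igkc and 50.4 for Cd79b, and in WKO unconfined libraries 2168, 2058 and 58.6.

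Reads assigned to V segments were counted next; a number of segments is not a number of chains, because 1 segment can join different partners. The table held 185 heavy and 163 light chain V segments, of which 180 had at least 1 read and 158 had 3 or more in at least 1 library. Heavy chain V reads numbered 379 and 311 in WT unconfined, 1817 and 1541 in WKO unconfined, 173, 272 and 9 in WT confined, and 2189, 1698 and 312 in WKO confined libraries. Light chain V reads ran in parallel, from 14 in WT confined replicate 6 to 2744 in WKO confined replicate 1. Within each condition all WKO libraries were above all WT libraries for both chains.

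As summed normalized counts, heavy chain V segments had means of 329 ± 43.5 (WT) and 1692 ± 143 (WKO) in unconfined libraries (SD, n = 2 each). Confined means were 171 ± 157 and 1293 ± 797 (SD, n = 3 each). The log2 difference between genotypes was 3.73 in confined and 2.36 in unconfined cells for the heavy chain, and 3.68 and 2.18 for the light chain. Averaged over conditions, it was 3.05 for the heavy and 2.93 for the light chain, with all WKO above all WT libraries of the same condition (two-sided exact permutation p = 0.0167 each, the smallest that 120 permutations can give; 0.0333 adjusted over 4 tests). Across conditions the light chain overlapped: WKO confined replicate 5 had 376 normalized counts, and the WT unconfined libraries 447 and 416.5. This test includes the unconfined libraries, in which Ighm was known to differ beforehand. Confined libraries alone gave an exact permutation p of 0.1 for each chain, the smallest that 3 against 3 can give. The confinement difference was -1.37 for the heavy and -1.54 for the light chain (exact permutation, adjusted p = 0.26 and 0.253).

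**Figure D2:**
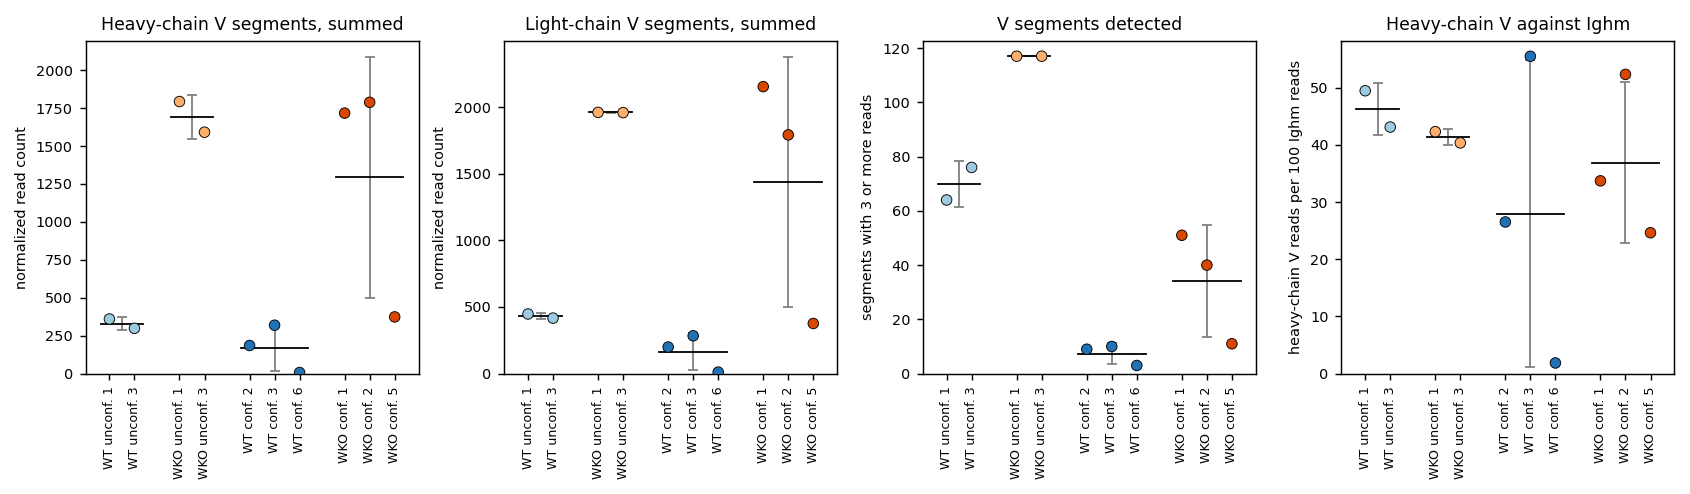
From left to right, summed normalized counts of heavy and light chain V segments, number of V segments with at least 3 reads, and heavy chain V reads per 100 Ighm reads; 1 point per library, the line is the group mean and the bar 1 SD. WKO unconfined libraries both held 117 segments, WT confined libraries 3 to 10, and WT confined replicate 6 had 1.86 heavy chain V reads per 100 Ighm reads.

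The number of V segments with at least 3 reads was 64 and 76 in WT unconfined and 117 in both WKO unconfined libraries. After confinement it was 9, 10 and 3 in WT and 51, 40 and 11 in WKO libraries, so that each confined group lay below the unconfined group of its genotype. No segment reached 3 reads in all 10 libraries, and 37 did so in 1 library only. Read numbers differ between the libraries and the segment count was not corrected for them. WKO confined replicate 1, with the most V reads of all (4933), had 51 segments, against 117 in WKO unconfined replicate 3 with 3438 reads. WT confined replicate 3 (514 reads) had 10, against 76 in WT unconfined replicate 3 (745 reads). The number of genes of any kind with a read was 16983 and 17564 in WT unconfined and 17769 and 17817 in WKO unconfined libraries. It was 16306, 16398 and 17681 in WT confined and 16682, 17007 and 16523 in WKO confined libraries. WKO confined replicate 1 had 16682 although it was the deepest library, with 19329908 reads. The part of this in the segment counts was not tested.

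Single segments took larger shares in the confined libraries with few segments. Ighv1-81 made up 29.6% (95% Wilson interval 25.8 to 33.7) of the V reads in WT confined replicate 3, and Igkv16-104 made up 23.8% (20.6 to 27.3) in WKO confined replicate 5. In WKO unconfined libraries the top segment was Igkv4-59, with 10.3% in each. These intervals, like the detection floor, cover counting error only, since PCR copies are not independent molecules.

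Igkv4-59, whose sequence heads those shown above, had 391 and 354 reads in WKO unconfined and 527, 178 and 0 in WKO confined libraries. In WT it had 0 and 4 reads in unconfined and 0 in all 3 confined libraries. Ighv5-12 followed the same libraries, with normalized counts of 194 in each WKO unconfined library, 183, 79.0 and 0 in WKO confined libraries, and at most 4.69 in WT. Ighv1-81 was spread more widely: 39.9 and 48.9 in WT unconfined, 173 and 147 in WKO unconfined, 0, 178 and 0 in WT confined, and 245, 55.8 and 127 in WKO confined libraries. Of these 3, Ighv1-81 was thus also abundant in WT libraries.

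Of the 51 V segments that passed the filter, limma called Ighv1-26 as higher in WKO among confined libraries (log2 4.44, adjusted p = 0.0375), 1 of 51 beside 1.38% of all tested genes called higher. In that contrast 21 of the 51 had an unadjusted p under 0.05, edgeR called 5 and DESeq2 called 16. Of all 12455 tested genes, 2087 had an unadjusted p under 0.05 there, edgeR called 325 and DESeq2 called 778. limma called Igkv1-122 and Igkv6-23 as lower after confinement in WKO (log2 -5.54 and -5.47, adjusted p = 0.0338 and 0.0362), 2 of 51 beside 1.72% of all tested genes called in either direction. There 8 had an unadjusted p under 0.05, edgeR called 2 and DESeq2 called 0. Over all tested genes these numbers were 1758, 186 and 486. By limma no segment passed in the unconfined genotype comparison, in WT confinement or in the interaction. In these 3 contrasts 12, 10 and 0 had an unadjusted p under 0.05, beside 1196, 1523 and 258 of all tested genes. edgeR called 0 in each, beside 15, 116 and 0 of all tested genes. DESeq2 called 0, 1 and 0, beside 183, 334 and 0. The median log2 difference of the 51 was 2.41 between confined genotypes and -1.88 for confinement in WKO, beside medians of 0.0036 and -0.0130 over all tested genes.

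The mixture of segments differed between libraries of 1 group. Over the 180 segments, Pearson's r of log2 counts was 0.82 between both WKO unconfined libraries, which shared 98 of their 117 segments (83.8% of each). For the other 44 pairs of libraries it ranged from -0.05 to 0.59 with a median of 0.22. Between both WT unconfined libraries it was 0.46, with 41 shared segments (64.1% of one, 53.9% of the other). The 3 WT confined libraries shared 0 segments in any pair. WKO unconfined replicate 1 and WKO confined replicate 1 shared 46 segments, 90.2% of those in the confined library and 39.3% of those in the unconfined one. WKO unconfined replicate 3 also shared 46 segments with WKO confined replicate 1, with the same shares. Of the 11 segments in WKO confined replicate 5, WKO unconfined replicate 1 held 11 and WKO unconfined replicate 3 held 10. High shares were not limited to WKO pairs. Of the 10 segments in WT confined replicate 3, each WKO unconfined library held 10 and each WT unconfined library 8. Both WKO unconfined libraries held the most segments, 117, and the shares were not corrected for this. Across all genes, the chi-square per degree of freedom of the WKO unconfined pair was 8.88, above counting noise, so they were counted as 2 libraries. Whether they share an animal or culture cannot be told from this value.

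**Figure D3:**
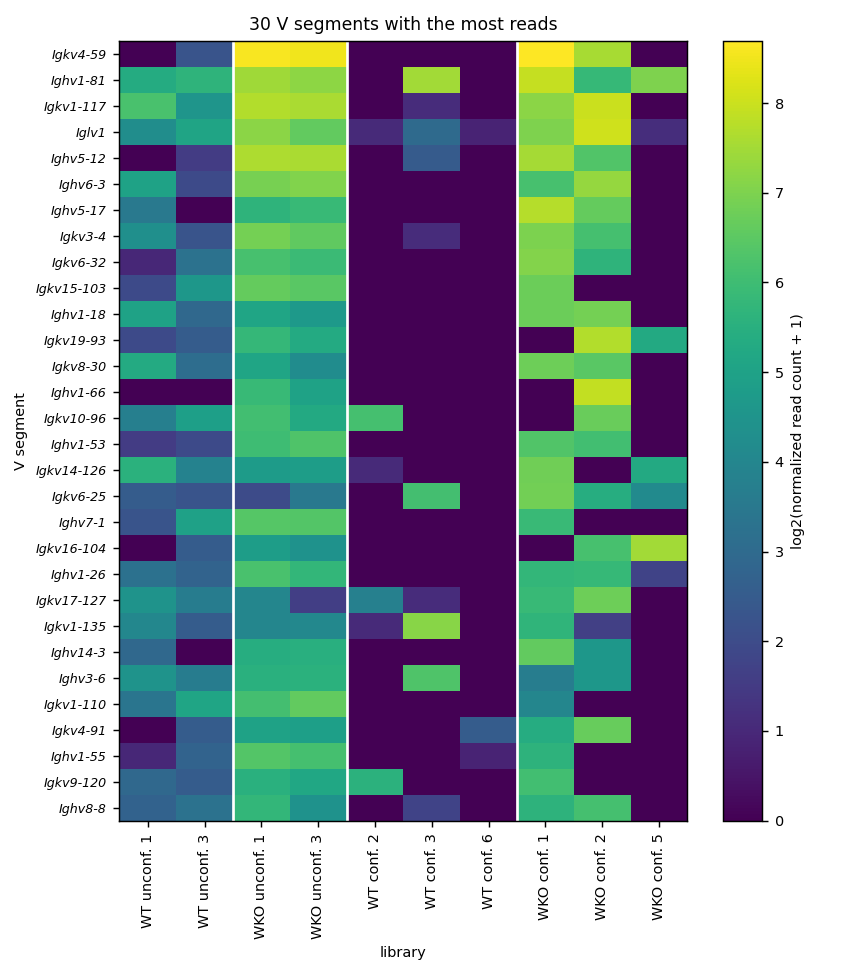
Heat map of log2(normalized read count + 1) for the 30 V segments with the most reads (rows) in the 10 libraries (columns), with white lines between groups. Both WKO unconfined libraries show the same segments at similar levels, the WT confined libraries are mostly at 0, and WKO confined replicates 1, 2 and 5 differ from one another.

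Reads of the heavy chain constant regions were divided by class, whether or not their transcripts held a V segment. Ighm made up 40.5% (95% Wilson interval 38.3 to 42.7) and 50.9% (48.3 to 53.5) of heavy chain constant region reads in WT unconfined libraries. Both WKO unconfined libraries were higher, at 76.2% (75.0 to 77.3) and 76.4% (75.2 to 77.6). WT confined libraries ranged widely, at 73.7%, 55.1% and 99.4% (replicates 2, 3 and 6), and WKO confined libraries lay between 77.9% and 83.3%. Ighm therefore took a larger share of these reads in all WKO than in all WT unconfined libraries, while confined genotypes overlapped.

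Igha, the IgA constant region, had 756 and 429 normalized counts in WT unconfined and 890 and 851 in WKO unconfined libraries. After confinement it had 115, 443 and 0 in WT and 549, 482 and 0 in WKO, where 0 reads allow a share of up to 0.617% in WT replicate 6 and 0.197% in WKO replicate 5. Ighg2b, an IgG constant region, reached 361, 442 and 309 in WKO confined against 131, 8.21 and 0 in WT confined libraries, a log2 difference of 5.11 that missed the threshold (limma adjusted p = 0.0506). Ighd, the IgD constant region, had at most 13 reads in any library, and Ighe none in any of the 10. Jchain, which joins IgM and IgA into polymers in plasma cells, had 146 and 91.2 in WT unconfined, 365 and 304.5 in WKO unconfined, 64.3, 84.5 and 3.21 in WT confined, and 246, 348.5 and 73.1 in WKO confined libraries. Its confined genotype difference was 2.69 (limma adjusted p = 0.158).

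**Figure D4:**
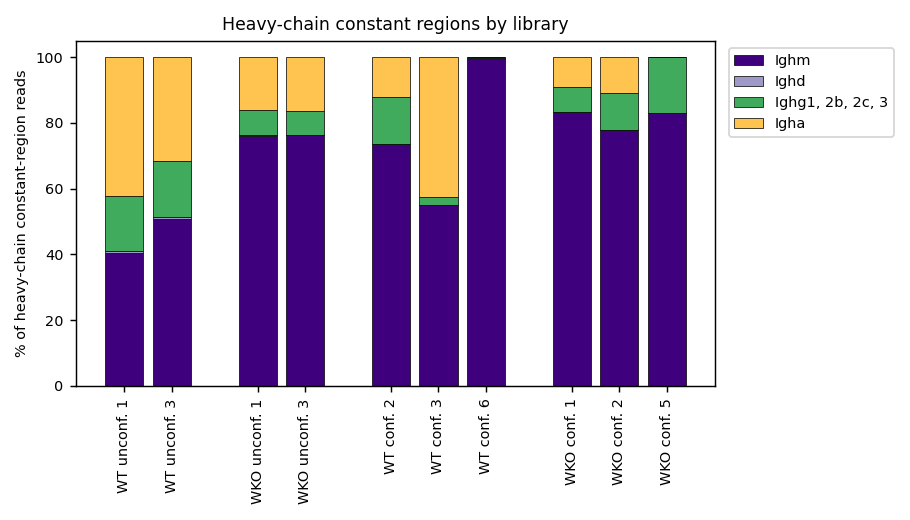
Share (%) of heavy chain constant region reads from Ighm, Ighd, the 4 Ighg genes and Igha in each library; bars add to 100. Igha is at 0 in WT confined replicate 6 and WKO confined replicate 5, and Ighm makes up 99.4% in WT confined replicate 6.

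WT confined replicate 6 stood apart from the other 9 libraries. It had 483 Ighm reads, close to the 490 of WT confined replicate 3, but 9 heavy chain V reads, 11 Igkc reads and 1 read of the 4 Ighg genes together. Heavy chain V reads per 100 Ighm reads were 1.86 there and between 24.6 and 55.5 in the other libraries. Its ratio of Ighm to Igkc reads was 43.9, against 3.11 to 9.31 elsewhere. V, light chain and switched reads were thus few for its number of Ighm reads.

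Most other genes of the B cell receptor pathway did not pass the test. Of 25 listed receptor, co-receptor and signalling genes, 18 were tested, and 4 were higher in WKO among confined libraries: Ighm, Igkc, Cd79b and Fcgr2b. Of all tested genes, 1.38% were called higher there. Ighm and Cd79b had been chosen on values of these data, so their calls add no independent support. limma called none of the 18 as lower; 12 had a log2 difference above 0 and 6 below, and their median was 0.21, beside 0.0036 for all tested genes. edgeR called 4 of the 18 and DESeq2 called 7, among them Cd72 and Pik3ap1, whose limma log2 differences were -0.53 and -0.29. Of all 12455 tested genes, edgeR called 325 and DESeq2 called 778 in that comparison. Fcgr2b, an inhibitory Fc receptor that macrophages also carry, had 1795, 1815 and 1365 in WT confined and 3624, 3476 and 6947 in WKO confined libraries (log2 1.43, SE 0.222, limma adjusted p = 0.0101). In WT confinement 1 of the 18 (Cd79b) was lower, where 0.265% of all tested genes were called lower. That difference had led to the choice of Cd79b, so nothing is read from it. In WKO confinement none of the 18 passed by limma, edgeR or DESeq2, with 0 at an unadjusted p under 0.05. Syk, Lyn and Ptpn6, signalling proteins of many blood cells, had mean counts of 8001, 3679 and 2801 over the 10 libraries.

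Among 17 listed genes of the mature B cell surface and antigen handling, 10 were tested. None passed between confined genotypes by limma, edgeR or DESeq2. Of the 10, 3 had an unadjusted p under 0.05, beside 2087 of all 12455 tested genes. Cd83, an activation marker shared with dendritic cells and macrophages, was higher after confinement in both genotypes (log2 2.37 in WT, limma adjusted p = 0.0261; 2.41 in WKO, limma adjusted p = 0.0192). Cd40, the receptor for T cell help, was higher after confinement in WKO (log2 1.82, limma adjusted p = 0.0433). Its highest count, 755, was in WKO confined replicate 5, against 300 and 226 in the other WKO confined libraries. Of the 10, limma called 1 in WT and 2 in WKO confinement, beside 1.16% and 1.72% of all tested genes called in either direction.

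Among 17 B-lineage transcription factors, 13 were tested, and Pou2f2, an octamer-binding factor, was higher in WKO among confined libraries (log2 0.99, limma adjusted p = 0.0401). That was 1 of 13, beside 1.38% of all tested genes called higher. limma called no other of the 13 in any of the 5 contrasts. DESeq2 called Irf4 as well as Pou2f2 between confined genotypes, and Irf8 for confinement in WKO. Of all 12455 tested genes, DESeq2 called 778 and 486 in these 2 contrasts. Pax5, which fixes B cell identity, had between 0 and 16.8 normalized counts and was not tested. Of 14 pro-B and pre-B genes, 12 were found and 8 tested. Flt3, a receptor of early progenitors and dendritic cells, was higher in WKO among confined libraries (log2 2.78, limma adjusted p = 0.0346). Its counts there were 15.6 to 28.4 against 1.17 to 3.21. Flt3 was 1 of 8, beside the same 1.38% of all tested genes. The surrogate light chain gene Igll1 and the recombinase gene Rag2 had 0 reads in all 10 libraries, and Rag1 had at most 5.

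Of 13 plasma cell and switched constant region genes, 9 were tested and limma called none in any contrast. Unadjusted p-values under 0.05 numbered 1 and 2 in the unconfined and confined genotype comparisons, 6 and 4 in WT and WKO confinement, and 1 in the interaction. Over all 12455 tested genes they numbered 1196, 2087, 1523, 1758 and 258 in the same order. edgeR called 1 of the 9, for confinement in WKO, beside 186 of all tested genes. DESeq2 called 1 (Sdc1), for genotype in unconfined cells, beside 183. Sdc1 was lower in WKO there, with normalized counts of 692.5 and 1508 in WT and 468.6 and 515.1 in WKO unconfined libraries. The median log2 difference of the 9 genes after confinement was -3.00 in WT and -0.85 in WKO, with 8 and 6 of them lower.

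Markers of B cells were examined as a list that includes 5 of the 8 genes. Of 14 B cell markers, 13 had 3 or more reads in a library, but Cr2, Fcer2a and Vpreb3 had at most 2, 4 and 6 reads. The summed normalized count of the 14 was 554 to 625 in WT unconfined, 698 to 868 in WKO unconfined, 386 to 577 in WT confined and 546 to 658 in WKO confined libraries. Most of that sum was Cd22. Between confined genotypes the WKO to WT ratio of means was 1.12 for Cd22, 2.81 for Cd79b and 4.14 for Cd79a.

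Markers of neutrophils and their progenitors moved with Ighm and Igkc. The summed count of all 11, which include Elane, Mpo, Ngp and Camp, was 6928 to 10890 in WT unconfined, 24850 to 29930 in WKO unconfined, 2559 to 7954 in WT confined and 6991 to 27990 in WKO confined libraries. WKO confined replicate 5 was the lowest WKO library and WT confined replicate 6 the lowest of all, as for Igkc. Stromal markers, all 12 detected, summed to 979 to 2030, 2648 to 2917, 212 to 784 and 991 to 11020 in the same order of groups. Macrophage markers were also higher in WKO, at 225500 to 230500, 269200 to 278300, 197000 to 225100 and 277300 to 339900. Xcr1 of dendritic cells, Klk1 of plasmacytoid dendritic cells, and Trac and Ncr1 of T and NK cells were at 0 in all libraries. Of 9 dendritic cell markers, 8 had 3 or more reads in a library. So did 11 of 12 plasmacytoid dendritic and 6 of 11 T and NK cell markers. In the same order of groups, dendritic cell markers summed to 5690 to 6919, 3096 to 3482, 3711 to 6064 and 2816 to 3898. Most of that sum was Itgax, with a mean of 4076 over the 10 libraries. Of the 6 dendritic cell markers tested, 4 were higher and 2 lower in WKO in unconfined libraries. Among confined libraries 5 were higher and 1 lower. Plasmacytoid dendritic cell markers summed to 5059 to 5493, 6098 to 6270, 4792 to 4959 and 5243 to 5647. T and NK cell markers summed to 308 to 346, 442 to 477.5, 221 to 230 and 386 to 449, most of it Cd4. The part of these other cells in the immunoglobulin results was not tested.

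**Figure D5:**
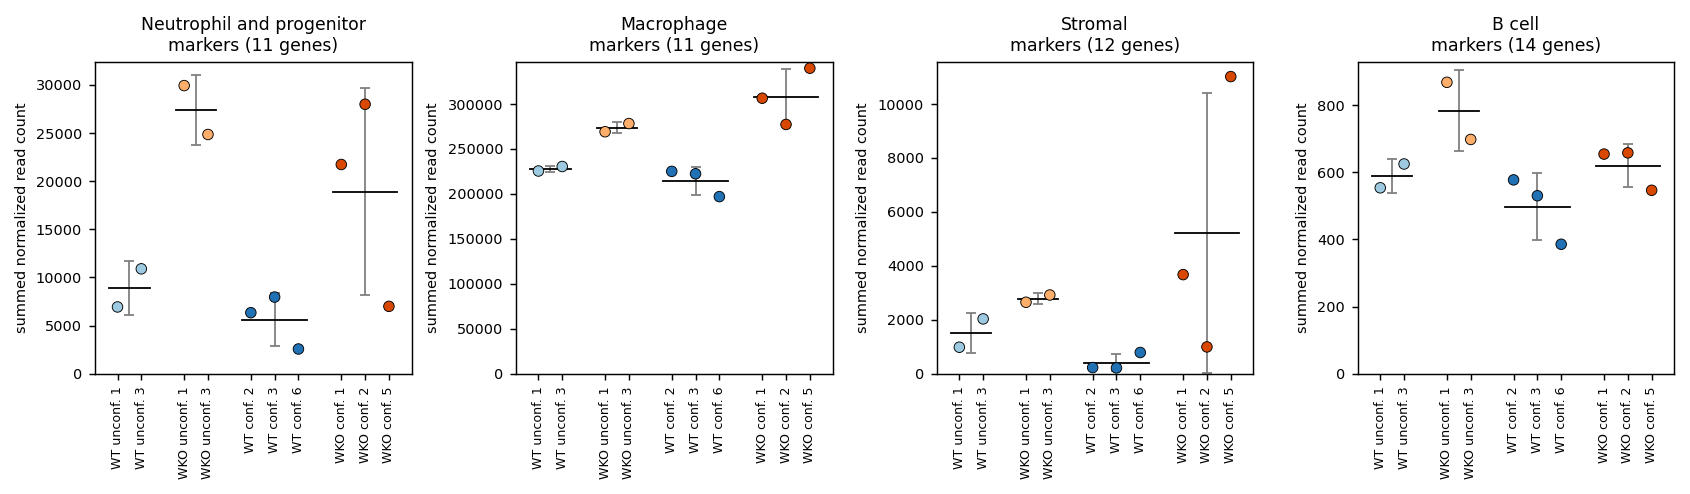
Summed normalized read counts of 4 marker lists by library, with 1 point per library, the group mean as a line and 1 SD as a bar. Neutrophil and progenitor markers are highest in WKO libraries other than confined replicate 5, where stromal markers reach 11020.

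Genes with the most similar profile across the 10 libraries were found by Pearson's r of log2(value + 1) over 12454 other tested genes; r includes the differences between the 4 groups. For Ighm they were Ggt5 (0.98), Abcd2 (0.97) and Slc40a1 (0.95). For Igkc they were Cd177 (0.99), Lcn2 (0.98) and Plbd1 (0.97), of which Cd177 and Lcn2 are known from neutrophils. For Cd79b they were Stx5a (0.96), Bcl2l12 (0.96) and Mis18a (0.95). Within the set, Ighm and Igkc had an r of 0.91, Ighm and Cd79b 0.70, and Ms4a1 and Ebf1 -0.24.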

How the data were processed

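RNA sequencing covered 10 libraries, made from 5 ng of total RNA each with an mRNA library kit, per the labels' protocols. The values the authors deposited are a signal, read counts normalized per library. Submitters' processing notes name FastQC, Trim Galore, STAR and GRCm38/mm10, with no role or version; the counting tool, annotation and use of strand are not given in the sources used here. Every value above 0 was a whole multiple (within 0.0001) of the value of 1 read (100%), so that reads were recovered; DESeq2 size factors recomputed from them matched to within 2.86e-12. Such scaling corrects depth, not composition. Positions are those of GENCODE M21, which lacks 4981 of the identifiers.

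Genes with a mean of at least 10 were tested on log2(normalized count + 1) with limma 3.58.1 (trend, R 4.3.3) in 1 fit of all libraries with 1 mean per group (6 residual degrees of freedom). P-values were adjusted over all 12455 genes by the Benjamini-Hochberg method, with a threshold of 0.05. These fold changes understate the change of low genes. On recovered reads, edgeR 4.0.16 called 15, 325, 116, 186 and 0 genes, and DESeq2 1.42.0 called 183, 778, 334, 486 and 0, in the unconfined and confined genotype, WT and WKO confinement and interaction contrasts; limma called 18, 322, 144, 214 and 0. V-segment sums were tested by exact permutation within the other factor. Shared sequence was checked with blastn 2.17.0 (matches of 100 bases or more at 95% identity that cover 20% of a transcript). The fits were tested on simulated data.

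The members and lists were chosen with earlier results of these data known. Named genes were the 8 members, list genes that passed or were among the 3 most abundant of their list, the 5 V segments with the most reads and, per tested member, the 3 most similar genes; a part is described. Other V segments, constant regions and markers were named after their values were seen. Alternatives were other pseudocounts, no filter, TMM scaling, edgeR, DESeq2, only the groups compared, the replicate number as a block and each library left out.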

Additional observations from a re-analysis of the deposited data

How the results depend on the processing

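Replicate numbers do not pair the libraries in the labels, and deviations of same-numbered libraries had correlations between -0.11 and 0.08. The count of tested genes called for genotype in unconfined cells (18) was 10 without the filter, 189 with only the groups compared, 245 with the replicate block and 183 in DESeq2. In confined cells (322) it was 186, 90 and 778 (no filter, groups compared, DESeq2). For confinement it was 455 and 334 in WT (144) and 33 and 486 in WKO (214), with the groups compared and DESeq2. Without 1 library the counts ranged from 4 to 141, 58 to 701, 22 to 397 and 43 to 1043, and stayed 0 for the interaction.

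The count of members called for genotype in unconfined cells was 0 with a pseudocount of 0.25, no filter, TMM or edgeR and 2 with only these groups or the replicate block (0 to 1 without 1 library). In confined cells it was 1 with no filter or only these groups (1 to 3 without 1 library); under the block Cd79b had a limma adjusted p of 0.206. In WT confinement it was 0 with no filter, the block or edgeR (0 to 1 without 1 library).

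Differences that passed no test changed sign in these cases, on the log2 scale. Under the replicate block these were Ms4a1 between confined genotypes (0.064), Ighm and Igkc for confinement in WKO (0.043 and 0.37) and Ighm in the interaction (0.072; 0.058 in edgeR, 0.068 in DESeq2). Ms4a1 for confinement in WT was 0.0056 in DESeq2. Over fits without 1 library, Cd79b and Spib between unconfined genotypes ranged from -0.047 to 0.48 and -0.74 to 1.85, and Ms4a1 between confined ones from -1.13 to 1.30. Cd22 for confinement in WT ranged from -0.053 to 0.20, and for confinement in WKO Ighm ranged from -0.84 to 0.030, Igkc from -1.28 to 0.017, Ebf1 from -1.19 to 0.41 and Spib from -1.36 to 0.13. In the interaction Ighm ranged from -0.45 to 0.43, Ms4a1 from -1.86 to 0.57 and Spib from -0.17 to 2.42.

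V-segment differences between genotypes ranged from 2.23 to 3.55 (heavy) and 2.21 to 3.35 (light) without 1 library. The exact permutation adjusted p rose to 0.0667 without WT confined replicate 6 or any WKO confined library. With confined libraries only, an alternative chosen after seeing the data, they were 3.73 and 3.68 (exact permutation p = 0.1). Depth limits Cd79a, Ms4a1, Ebf1, Spib and single V segments, each with libraries under the floor of 3 reads.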
